A study of Mus musculus with 8 samples.

Results

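The calcium-binding S100A genes and *Ager*, the gene of the receptor RAGE, were followed in RNA of the mouse corpus callosum, the large white matter tract between the hemispheres. The members were 10 genes chosen by symbol, 9 S100A genes and *Ager*, out of 25239 genes in the deposited table, and all 10 were found. A mean of at least 0.1 CPM (reads of a gene scaled to a common library size) over the libraries, the limit for testing, was reached by 9 members, and 7 had a mean of at least 1 CPM. *S100a8* (mean 0.108 CPM) passed the first limit and *S100a4* (1.37 CPM) the second through a single library, day 7 after carotid stenosis with the label WT, without which their means were 0.0599 and 0.866 CPM. *S100a4*, *S100a8*, *S100a9*, and *Ager* had 3 or fewer reads in at least 1 library, which was taken as the read floor.

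The study asked how the cation channel TRPA1 bears on the response of white matter to chronic low blood flow. In bilateral common carotid artery stenosis (BCAS) a microcoil narrows both carotid arteries, and sham surgery left out the coil. The 8 libraries were from mice labelled C57BL/6, young adults by the study's methods, 4 labelled WT (wild type, purchased as male C57BL/6J) and 4 labelled TRPA1-KO (a knockout of the channel in all cells, backcrossed to C57BL/6J). Per label, sham tissue was taken on postoperative day 14 (1 library) and BCAS tissue on days 7, 10, and 14 (1 library a day), so for days 7 and 10 the operation and the day cannot be told apart in a comparison with sham. No condition on a given day was replicated, so the 3 days stood in as replicates of a label, and the spread within a group includes differences between days. By the study's methods a sample came from a single mouse.

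Reads of *Trpa1* itself went against the labels. The libraries labelled WT held 1 read in sham and 0, 0, and 0 on days 7, 10, and 14, whereas those labelled TRPA1-KO held 10, 11, 3, and 7. Which part of the gene the knockout allele lacks was not given in the sources used here, and reads outside a deleted part would not test a deletion. Every direction between WT and TRPA1-KO below is thus one between deposited labels. Library totals were 7896071 to 12952093 reads, so that 1 read was worth 0.0782 to 0.126 CPM. Defining markers of oligodendrocytes, the main cells of white matter, summed to 11455 to 15410 CPM, and markers of neurons (3661 to 4810 CPM) were also present in every library.

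S100 proteins are small, work mostly as dimers, and in most cases are calcium sensors. In those cases calcium exposes a surface through which they bind annexins, cytoskeletal proteins, and other targets inside the cell. Several S100 proteins are released and act on neighboring cells through RAGE or TLR4. In the nervous system they are known as products of astrocytes, of microglia, and of myeloid cells that enter from blood, and *S100a8* and *S100a9* are abundant in neutrophils.

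The 9 S100A members lie on chromosome 3 in the GRCm38 build, in 2 stretches. *S100a1* (90511034 to 90514392, minus strand) and *S100a13* (90514435 to 90524581, plus strand) stand head to head with 42 bp between them, and *S100a16*, *S100a4*, *S100a6*, *S100a8*, and *S100a9* follow within a span of 184688 bp. *S100a11* (93520488 to 93526287) and *S100a10* (93555080 to 93564643) form the second stretch, 28792 bp apart, and *Ager* is on chromosome 17 (34597862 to 34600936). In the annotation, *S100a4* (90603771 to 90606045) overlaps the same-strand gene *Gm42674*, which had no row in the table, so reads of the *S100a4* region could not be split between them.

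The 250 bases before the start of *S100a4*, *S100a6*, and *S100a11* are shown because these genes had the widest range of log2(CPM + 1) among members with a mean of at least 1 CPM. They are from RefSeq on GRCm38.p6 (plus strand), at chr3:90603520-90603769, chr3:90612644-90612893, and chr3:93520246-93520495. Capitals mark matches on either strand. The TATA box was searched as TATAAA, the AP-1 motif as TGANTCA, the STAT motif as TTCNNNGAA, and the GC box as GGGCGG.
S100a4: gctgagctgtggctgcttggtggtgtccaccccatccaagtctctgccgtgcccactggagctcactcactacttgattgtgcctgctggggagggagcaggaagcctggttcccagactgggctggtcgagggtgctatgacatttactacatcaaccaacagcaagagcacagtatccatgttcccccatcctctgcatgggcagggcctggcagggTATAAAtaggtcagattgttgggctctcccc
S100a6: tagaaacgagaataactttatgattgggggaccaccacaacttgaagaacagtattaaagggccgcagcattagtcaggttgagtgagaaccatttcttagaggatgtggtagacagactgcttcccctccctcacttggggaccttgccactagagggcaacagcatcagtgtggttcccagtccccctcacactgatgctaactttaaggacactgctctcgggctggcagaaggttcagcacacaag
S100a11: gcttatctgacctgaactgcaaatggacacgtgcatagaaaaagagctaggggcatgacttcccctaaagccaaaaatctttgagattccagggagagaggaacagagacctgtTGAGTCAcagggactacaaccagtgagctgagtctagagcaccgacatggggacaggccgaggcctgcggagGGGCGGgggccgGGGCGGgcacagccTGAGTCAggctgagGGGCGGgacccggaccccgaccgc
The *S100a4* window held a TATA box beginning 31 bases before the start. The *S100a11* window held 2 AP-1 matches and 3 GC boxes, and the *S100a6* window held no match. Of 32851 mouse promoter windows of that length, 12.4% held the TATA letters, 6.75% the AP-1 letters, 7.02% the STAT letters, and 32.7% the GC box letters. Windows were found for 9 of the 10 members. A match is a string of letters and not a measured binding site.

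Per kilobase of exon, *S100a1* had the highest level of the members (53.8 ± 11.3 CPM per kb, SD, n = 8 libraries), and its lowest library lay above the highest library of *S100a16* (27.8 ± 4.46 CPM per kb). *S100a13* (16.9 CPM per kb), *S100a10* (11.8), *S100a6* (7.33), *S100a11* (4.43), and *S100a4* (2.34) followed. *Ager* (0.309 CPM per kb), *S100a9* (0.174), and *S100a8* (0.156) were lowest. From *S100a16* downward, each gene overlapped the next in its range over libraries. The genes were measured in the same libraries, so overlap of ranges does not show whether neighbors in this order differ. No comparison within libraries was made.

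*S100a4*, known as a protein of motile cells that binds nonmuscle myosin, had 0.313 CPM (4 reads) in the WT sham library and 0.671 CPM (7 reads) in the TRPA1-KO sham library. In BCAS WT it was at 4.89, 2.39, and 0.219 CPM on days 7, 10, and 14, from 55, 19, and 2 reads. In BCAS TRPA1-KO it was at 0.891, 0.534, and 1.04 CPM. Days 7 and 10 of BCAS WT were thus above all other libraries, and day 14 was the lowest of the 8. The day 7 value was 9.94 times the mean of both sham libraries, and its 95% Clopper-Pearson interval (3.68 to 6.37 CPM, counting error only, as for all such intervals here) lay above the intervals of both sham libraries.

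*S100a6*, or calcyclin, a partner of annexins and of the calcyclin-binding protein, showed the same order of days. It had 5.79 CPM in WT sham and 7.58 CPM in TRPA1-KO sham. BCAS WT gave 23.8, 15.8, and 4.06 CPM on days 7, 10, and 14, and BCAS TRPA1-KO gave 6.12, 7.79, and 9.26 CPM. The WT label was the higher on days 7 and 10, by 3.89 and 2.02 times, and the lower on day 14, at 0.438 times the TRPA1-KO value.

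*S100a11*, which pairs with annexin A1, had 1.56 and 2.49 CPM in the WT and TRPA1-KO sham libraries. BCAS WT gave 7.20, 3.15, and 0.439 CPM on days 7, 10, and 14, from 81, 25, and 4 reads. BCAS TRPA1-KO gave 1.45, 1.39, and 0.416 CPM, from 13, 13, and 4 reads. On day 14 both labels were therefore near the read floor and below both sham libraries, and all 3 BCAS TRPA1-KO libraries lay below both sham libraries. *S100a10*, which forms a tetramer with annexin A2, varied much less. It was at 13.8 and 11.9 CPM in the sham libraries, 18.1, 16.6, and 11.7 CPM in BCAS WT, and 14.5, 13.9, and 13.5 CPM in BCAS TRPA1-KO.

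*S100a1*, a modulator of calcium handling best known from muscle, had 33.6 and 32.8 CPM in the WT and TRPA1-KO sham libraries. BCAS WT gave 51.0, 48.4, and 32.1 CPM on days 7, 10, and 14, whereas BCAS TRPA1-KO gave 34.8, 30.3, and 35.4 CPM. Days 7 and 10 with the label WT were above all other libraries, and their counting intervals (47.0 to 55.4 and 43.7 to 53.5 CPM) did not reach those of the other 6 libraries. Its neighbor *S100a13*, which takes part in the release of FGF1, had 10.0 and 11.8 CPM in sham, 17.9, 12.6, and 10.6 CPM in BCAS WT, and 10.3 to 12.7 CPM in BCAS TRPA1-KO. *S100a16* had 44.4 and 43.7 CPM in sham, 61.0, 43.5, and 35.9 CPM in BCAS WT, and 42.7, 41.7, and 47.1 CPM in BCAS TRPA1-KO. For *S100a13* and *S100a16*, day 7 of BCAS WT alone stood above the other libraries.

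*S100a8* and *S100a9*, the subunits of calprotectin and ligands of TLR4 and RAGE, were at the edge of detection. *S100a8* had 1 read in WT sham, 5, 1, and 0 reads on days 7, 10, and 14 of BCAS WT, 0 reads in TRPA1-KO sham, and 1, 0, and 1 reads in BCAS TRPA1-KO. *S100a9* had 2 reads in WT sham, 5, 1, and 0 reads in BCAS WT, and 0 reads in each of the 4 libraries labelled TRPA1-KO, where 3 reads, the floor, amount to 0.288 to 0.334 CPM. Only day 7 of BCAS WT, at 0.445 CPM for either gene, exceeded the floor, and its interval (0.144 to 1.04 CPM) overlapped that of every other library. Overlap of intervals is not a test, so a difference between single libraries is neither shown nor excluded by it.

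*Ager* encodes RAGE, the cell surface receptor shared by several S100 proteins and HMGB1. It had 0.313 CPM (4 reads) in WT sham and 1.25 CPM (13 reads) in TRPA1-KO sham. BCAS WT gave 0.978, 1.01, and 0.439 CPM, and BCAS TRPA1-KO gave 0.668, 0.427, and 0.208 CPM (2 reads) on days 7, 10, and 14. The receptor gene had its highest value in TRPA1-KO sham, but the counting interval there (0.664 to 2.13 CPM) overlapped that of every other library. Its top library is therefore not settled at this depth. The 9 S100A genes each had their highest value on day 7 of BCAS WT, *S100a8* and *S100a9* from only 5 reads. Of the 15152 genes that averaged 1 CPM or more, a limit *S100a8* and *S100a9* did not reach, 21.4% were also highest there.

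**Figure D1:**
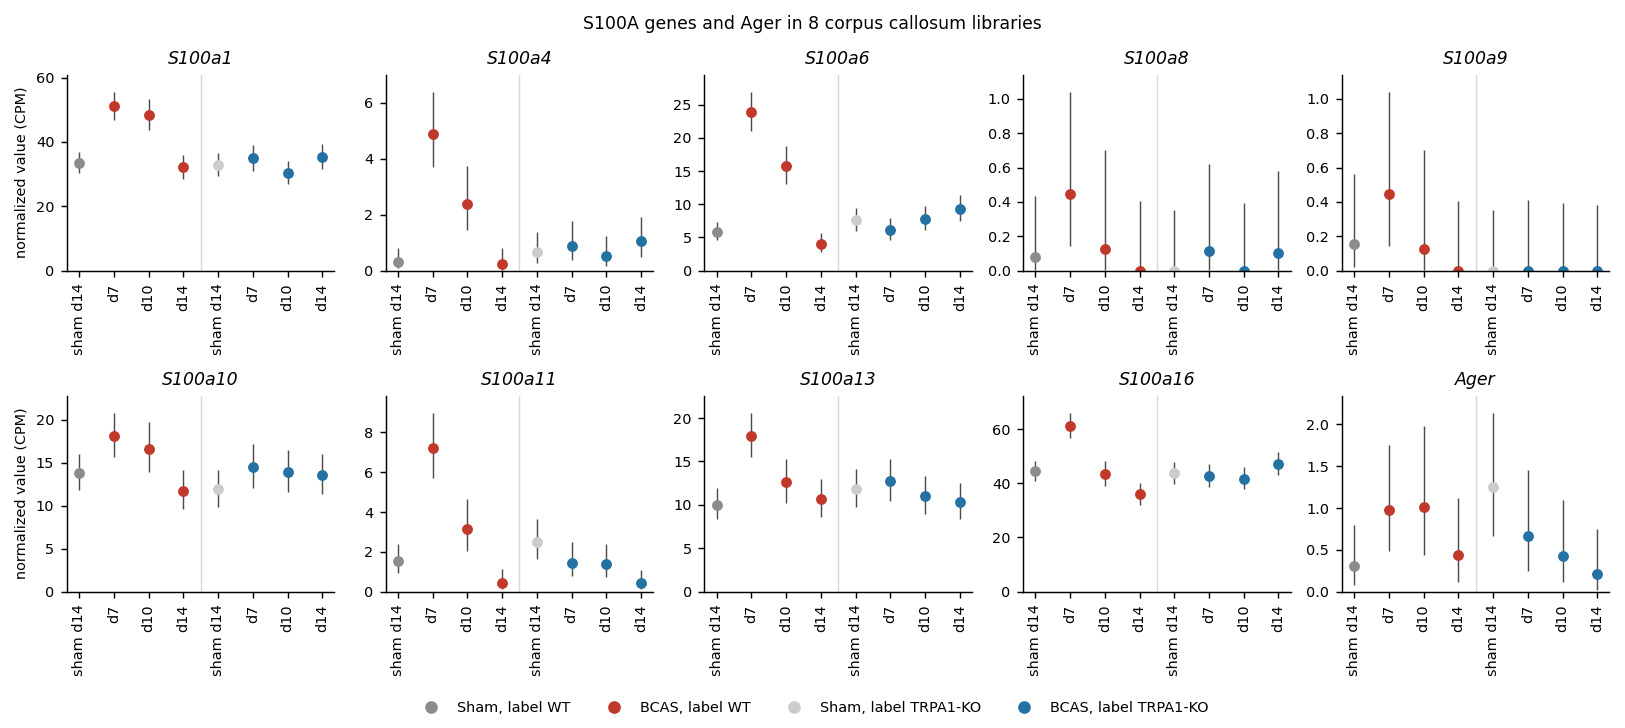
Normalized value (CPM, linear axis from 0, own scale per gene) of the 10 members in each of the 8 libraries, with 95% Clopper-Pearson intervals for counting error. In *S100a4*, *S100a6*, and *S100a11* the BCAS WT points stand at 4.89, 23.8, and 7.20 CPM on day 7 and at 0.219, 4.06, and 0.439 CPM on day 14, while *S100a8* and *S100a9* stay at or under 0.445 CPM throughout.

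The 7 members with a mean of at least 1 CPM, all S100A genes, shared a course over libraries. All 7 were highest on day 7 of BCAS WT, where 21.4% of the 15152 genes with such a mean were highest, and the count was 7 (21.5% of genes) after library medians had been equalized. For *S100a4* the limit itself depended on that library. With the limit set on the other 7 libraries, a choice made after seeing the data, it was 6 of 6 members and 20.9% of 15063 genes. Relative to the mean of both sham libraries, their median differences in log2(CPM + 1) in BCAS WT were 0.67, 0.47, and -0.28 for days 7, 10, and 14, with 7, 6, and 0 members above sham. In BCAS TRPA1-KO the medians were 0.07, 0.02, and 0.09, with 4, 4, and 5 members above sham. These medians and counts include *S100a4* and were not repeated without it. The median over all 15152 genes stayed within 0.01 of 0 in each library.

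Between labels on the same day, 7 of 7 members were higher with the label WT on day 7 (median log2 difference 0.54), 7 of 7 on day 10 (0.66), and 2 of 7 on day 14 (-0.19). Of all genes, 49.4%, 49.4%, and 49.3% were higher with the label WT on these days. These are 1 library against 1 on each day and have no replicate check. Over the 3 BCAS days, the SD of the log2 values was larger in BCAS WT than in BCAS TRPA1-KO for 7 of 7 members, as it was for 60.5% of all genes. The median SD of the members was 0.38 against 0.14, and that of all genes 0.15 against 0.12. *S100a4* is among the 7 only through day 7 of BCAS WT, so its part in these counts is not free of that library. The counts and medians by day and the SDs were not repeated without it.

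**Figure D2:**
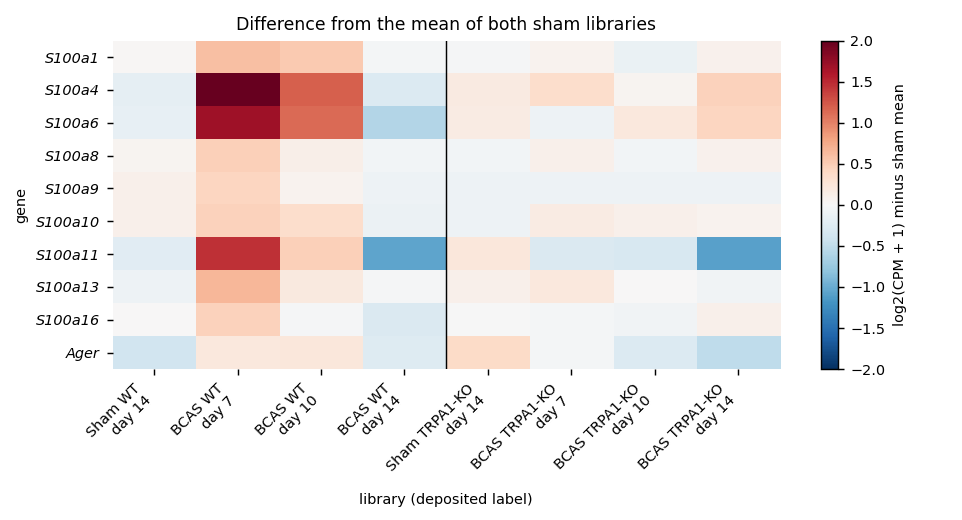
Color gives log2(CPM + 1) of each member in each library minus the mean of both sham libraries, red for higher and blue for lower. The red cells gather on days 7 and 10 of BCAS WT, where the median of the 7 members with a mean of at least 1 CPM is 0.67 and 0.47, and day 14 of BCAS WT is pale or blue.

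The 3 BCAS libraries labelled WT were then compared with the 3 labelled TRPA1-KO, the contrast that asks whether the label changes the BCAS state. All 9 tested members had the higher mean with the label WT, with a median log2 difference of 0.33 against 0.00 over all 18123 genes tested, of which 50.3% were higher. *S100a8* counts among the 9 only through its 5 reads on day 7 of BCAS WT. *S100a1* was at 43.9 ± 10.2 CPM in BCAS WT and 33.5 ± 2.78 CPM in BCAS TRPA1-KO (SD, n = 3 each), a log2 difference of 0.35 ± 0.16 (SE, limma p = 0.04995, adjusted p = 0.98, exact permutation p = 0.30). It was the 1 member of 9 with an unadjusted p under 0.05, where 4.20% of all genes had one. *S100a11* differed by 0.86 ± 0.52, *S100a4* by 0.68 ± 0.46, *S100a6* by 0.57 ± 0.47, and *Ager* by 0.33 ± 0.21, each with an adjusted p of 0.98 in limma.

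For *S100a8*, *S100a10*, *S100a13*, and *S100a16* the log2 differences were 0.14, 0.12, 0.23, and 0.06. No member passed at an adjusted p of 0.05 in limma (0.0166% of genes did). On the recovered reads, edgeR and DESeq2 called none either, where 2 and 17 of all genes passed. For none of the 9 members were the 2 groups free of overlap, against 9.21% of all genes. With 3 libraries against 3 the smallest exact two-sided p is 0.10, so a single gene could not pass 0.05 by permutation.

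These calls depended on single libraries. Without day 14 of BCAS WT, 5 members had an unadjusted limma p under 0.05, namely *S100a1*, *S100a4*, *S100a6*, *S100a11*, and *Ager*, with log2 differences of 0.56, 1.31, 1.24, 1.53, and 0.49. The smallest adjusted limma p among them was 0.079, for *S100a6*. In that fit 1846 genes (10.2%) had an unadjusted p under 0.05, against 761 with all 6 libraries. Leaving out any 1 of the other 5 libraries gave 0 members with such a p, where 1.79% to 4.65% of all genes had one. Without day 7 of BCAS WT the median difference was 0.09, with 7 of 9 members higher.

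Against both sham libraries, BCAS WT had the higher mean for 9 of 9 tested members, with a median log2 difference of 0.28, where 49.6% of all genes were higher. Without day 7 of BCAS WT it was 6 of 9, with a median of 0.08. As above, *S100a8* is among the 9 only through its reads in that library. *S100a4* differed most, by 0.97 ± 0.49 (limma adjusted p = 0.91, exact permutation p = 0.60), at 2.50 ± 2.34 CPM (SD, n = 3) against 0.492 ± 0.253 CPM (SD, n = 2). *S100a6* differed by 0.75 ± 0.50 (limma adjusted p = 0.92, exact permutation p = 0.60), with 14.5 ± 9.94 CPM in BCAS WT and 6.68 ± 1.26 CPM in sham. *S100a1* had the smallest p of the members, at a difference of 0.36 ± 0.17 (limma p = 0.051, adjusted p = 0.91, exact permutation p = 0.60). None of the 9 had an unadjusted p under 0.05, where 5.45% of all genes had one, and 0% of genes passed after adjustment in limma.

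The SD of the log2 values within BCAS WT, 1.15 for *S100a4* and 1.20 for *S100a6*, was larger than these differences. Without day 14 of BCAS WT, *S100a1*, *S100a4*, *S100a6*, *S100a10*, and *S100a11* had an unadjusted limma p under 0.05, as did 11.1% of all genes in that fit. *S100a6* passed after adjustment (log2 difference 1.42, adjusted p = 0.048 in limma), as 45 genes did. On the recovered reads, edgeR gave *S100a1*, *S100a4*, and *S100a6* an unadjusted p under 0.05 (6.78% of all genes) and DESeq2 gave *S100a1* and *S100a4* one (4.54%). None passed after adjustment, where 0 of all genes passed in edgeR and 24 in DESeq2, and DESeq2 gave no adjusted p for *S100a4*. With 3 against 2 the smallest exact two-sided p is 0.20.

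BCAS TRPA1-KO, set against the same sham libraries, had a median log2 difference of 0.04 over the members, and 6 of 9 had the higher mean. *S100a11* was the 1 member whose groups did not overlap, against 18.6% of all genes, with 1.08 ± 0.579 CPM in BCAS TRPA1-KO and 2.03 ± 0.657 CPM in sham and a log2 difference of -0.57 ± 0.55 (limma p = 0.33, exact permutation p = 0.20). *Ager* differed by -0.27 ± 0.27 (exact permutation p = 0.60), and *S100a4* by 0.29 ± 0.49 (exact permutation p = 0.40). No member had an unadjusted limma p under 0.05 (2.74% of genes did) or passed after adjustment (0.00552%). At an unadjusted p, edgeR and DESeq2 gave 0 members as well (2.85% and 1.40% of genes). Because both comparisons use the same sham libraries, their values are not independent of each other.

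**Figure D3:**
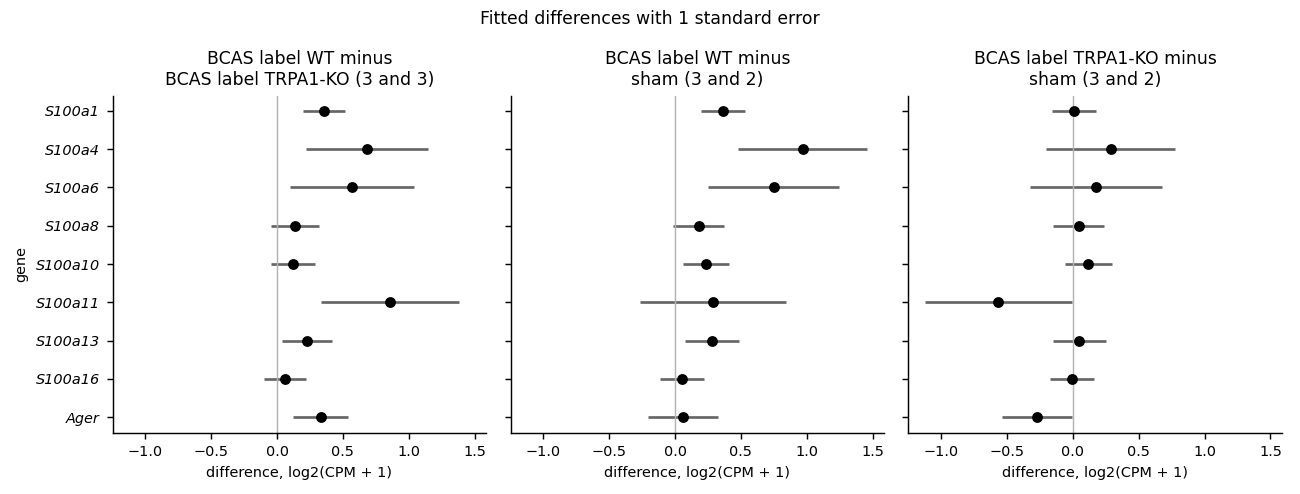
Fitted log2(CPM + 1) differences of the 9 tested members (points) with 1 standard error (bars) between the BCAS groups (left) and of each BCAS group from sham (middle and right). The points are right of 0 for all 9 members in the left and middle panels, with the longest bars in *S100a4*, *S100a6*, and *S100a11*, and *S100a11* is at -0.57 in the right panel.

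With sham libraries included, the 4 libraries labelled WT had the higher mean for 9 of 9 tested members (median log2 difference 0.14), where 50.7% of all genes were higher. Without day 7 of BCAS WT it was 4 of 9, with a median of -0.01. Here too *S100a8* is among the 9 only through that library. *S100a1* was at 41.3 ± 9.81 CPM against 33.3 ± 2.29 CPM (SD, n = 4 each), a difference of 0.27 ± 0.14 (limma p = 0.072, adjusted p = 0.99, exact permutation p = 0.26). No member had an unadjusted limma p under 0.05, where 3.94% of genes had one, or passed after adjustment (0.0497% of genes). DESeq2 gave 1 member, *S100a1*, an unadjusted p of 0.049 (3.45% of genes had one under 0.05), and edgeR gave 0 (4.76%). Here the smallest exact two-sided p is 0.0286.

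The change from sham of the same label to BCAS was also compared between labels. For *Ager* it was larger with the label WT by 1.11 ± 0.42 on the log2 scale (limma interaction, adjusted p = 1), and its unadjusted p was under 0.05, as for 1.50% of all genes in this test. The sham values behind it are single libraries of 4 and 13 reads, so the spread in this test came from the BCAS libraries and each sham library was assumed to vary like them. None of the other 8 tested members had such a p in limma.

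Among 7 other genes of the S100 family, 3 were abundant enough to test. *S100b*, the classical astrocyte and oligodendrocyte member, was steady at 91.2 and 110.2 CPM in sham, 87.6, 113.9, and 94.3 CPM in BCAS WT, and 102.4, 90.1, and 103.3 CPM in BCAS TRPA1-KO. Its log2 difference between the BCAS groups was -0.01 ± 0.10 (exact permutation p = 1). *S100a3* had 10, 8, and 4 reads in BCAS WT and 0, 3, and 4 in BCAS TRPA1-KO, a log2 difference of 0.52 ± 0.21 (limma p = 0.034, adjusted p = 0.98, exact permutation p = 0.10), and none of the 3 was highest on day 7 of BCAS WT.

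Genes of the intracellular partners of S100A proteins were read from a list of 10, of which 7 were highest on day 7 of BCAS WT (as 21.4% of the 15152 genes above). *Il1a*, 1 of the 10, averaged less than the 1 CPM set for those genes. *Anxa2*, the partner of S100a10, had 5.48 and 6.81 CPM in sham, 30.0, 7.56, and 4.06 CPM in BCAS WT, and 3.90, 4.48, and 5.10 CPM in BCAS TRPA1-KO. Its log2 difference between the BCAS groups was 1.01 ± 0.52 (limma adjusted p = 0.98, exact permutation p = 0.30). *Anxa1*, the partner of S100a11, was at 3.91, 2.14, and 0.768 CPM in BCAS WT and 0.557, 0.961, and 0.624 CPM in BCAS TRPA1-KO. It was the 1 partner gene of 10 with an unadjusted p under 0.05 between the BCAS groups, where 4.20% of all genes had one. Its log2 difference was 0.82 ± 0.33 (limma p = 0.031, adjusted p = 0.98, exact permutation p = 0.20).

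*Anxa11* followed another course from the S100A genes. It was at 29.8 and 33.1 CPM in sham and higher in all 6 BCAS libraries, at 50.5, 42.3, and 43.7 CPM with the label WT and 46.8, 45.4, and 45.8 CPM with the label TRPA1-KO. Its log2 differences from sham were 0.52 ± 0.10 (limma adjusted p = 0.73) and 0.54 ± 0.10 (limma adjusted p = 0.94), each with an exact permutation p of 0.20, the smallest possible. Against sham, 3 of the 10 partner genes in BCAS WT (*Anxa11*, *Anxa1*, and *Myh9*) had an unadjusted p under 0.05 in limma, as did 5.45% of all genes. In BCAS TRPA1-KO 1 of them did (*Anxa11*), as did 2.74% of all genes. After adjustment 0 passed (0% and 0.00552% of all genes).

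On the receptor side, a list of 14 ligand, receptor, and target genes of the RAGE and TLR4 axis had 13 tested genes. Of these, 7 were highest on day 7 of BCAS WT, as were 21.4% of the 15152 genes above. *Ccl2* was at 3.11 CPM there and at or under 0.223 CPM in each other library, so its place among the 13 rests on that library. Between the BCAS groups 12 of 13 had the higher mean with the label WT (median log2 difference 0.16), as did 50.3% of all genes tested. These counts were not repeated without day 7 of BCAS WT. In the 4 comparisons, 0 of the 13 had an unadjusted limma p under 0.05. Of all genes, 4.20% had one between BCAS groups, 5.45% in BCAS WT and 2.74% in BCAS TRPA1-KO against sham, and 3.94% between all labels. *Tlr4* was at 2.19 and 2.88 CPM in sham, 6.14, 3.02, and 1.21 CPM in BCAS WT, and 0.891, 1.17, and 3.12 CPM in BCAS TRPA1-KO. Its difference between the BCAS groups was 0.63 ± 0.42 (limma adjusted p = 0.98). *Hmgb1*, another RAGE ligand, stayed between 99.8 and 115.4 CPM in the 8 libraries.

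**Figure D4:**
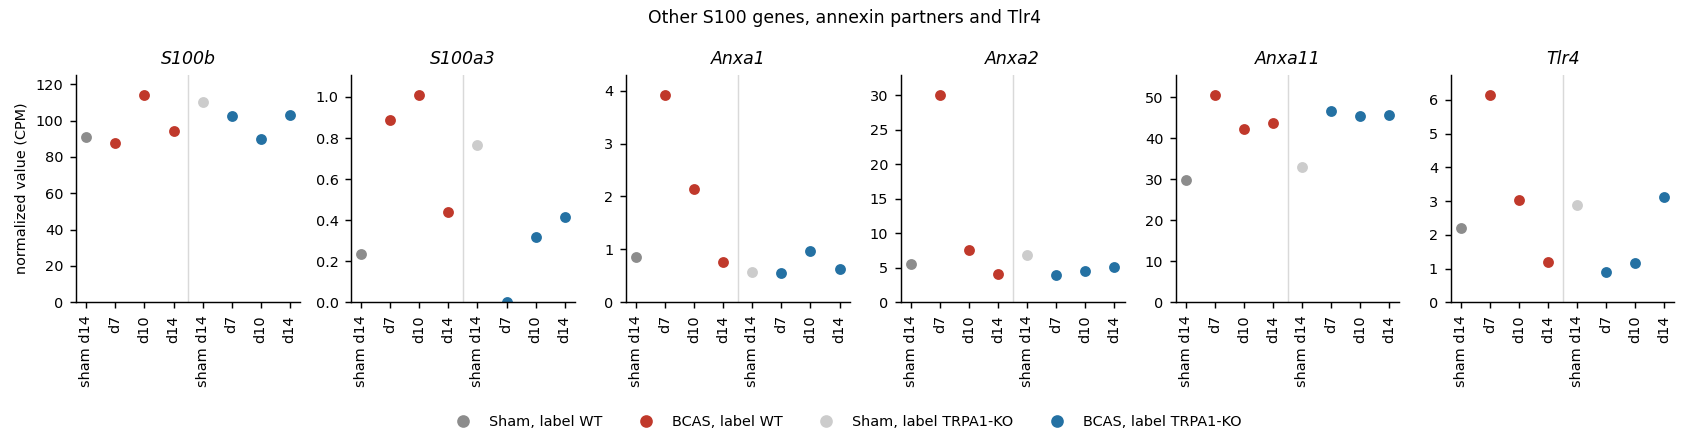
Normalized values (CPM, linear axis from 0, own scale per gene) of *S100b*, *S100a3*, *Anxa1*, *Anxa2*, *Anxa11*, and *Tlr4* in the 8 libraries. *Anxa2* and *Tlr4* peak on day 7 of BCAS WT at 30.0 and 6.14 CPM, *Anxa11* is higher in all 6 BCAS libraries than in both sham libraries, and *S100b* stays between 87.6 and 113.9 CPM.

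Several cell type marker lists moved with the members. In bulk tissue, fewer cells of a type and less RNA per cell cannot be told apart. The summed level of 6 astrocyte markers was 1035 to 1077 CPM in sham, 2521, 2050, and 938.5 CPM on days 7, 10, and 14 of BCAS WT, and 933.9 to 1371 CPM in BCAS TRPA1-KO. Much of the change in this sum came from 1 gene, *Gfap*. Its values were 200.4 and 234.4 CPM in sham, 1415, 1060, and 156.9 CPM in BCAS WT, and 167.1 to 426.7 CPM in BCAS TRPA1-KO. The 6 microglia markers summed to 295.4 to 303.6 CPM in sham, 744.9, 476.0, and 291.2 CPM in BCAS WT, and 278.1 to 384.1 CPM in BCAS TRPA1-KO. All 6 were highest on day 7 of BCAS WT, as were 5 of the 6 astrocyte markers.

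Markers of monocytes (*Ccr2*, *Ly6c2*, *Plac8*, and *Fn1*) reached 192.5 CPM on day 7 of BCAS WT against 48.2 to 77.6 CPM in the other libraries. Of these 4 genes, 3 reached the limit for testing, and the part of each in the sum was not examined. Markers of fibroblasts (4 genes) reached 31.8 and 25.3 CPM on days 7 and 10 against 11.5 to 18.1 CPM in the other 6 libraries. Endothelial markers (4 genes) were also highest on day 7 of BCAS WT, at 193.4 CPM against 151.7 to 175.4 CPM in the other libraries. Neuron markers (5 genes) were lowest on day 7 of BCAS WT, at 3661 CPM against 4168 to 4810 CPM in the other libraries, and no neuron or oligodendrocyte marker was highest there. Oligodendrocyte markers (5 genes) summed to 14004 and 15410 CPM in the WT and TRPA1-KO sham libraries. All 6 BCAS libraries were lower, at 11575 to 12483 CPM in BCAS WT and 11455 to 12937 CPM in BCAS TRPA1-KO. The part of these cell types in the S100A values was not tested. Neutrophil markers (8 genes) summed to at most 1.42 CPM, on day 7 of BCAS WT, with *Ly6g* and *Elane* at 0 in every library, beside the 5 reads each of *S100a8* and *S100a9* in that library. Erythrocyte markers (4 genes) ranged from 1.11 to 201.7 CPM and were lowest in TRPA1-KO day 7 BCAS and highest in TRPA1-KO sham.

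**Figure D5:**
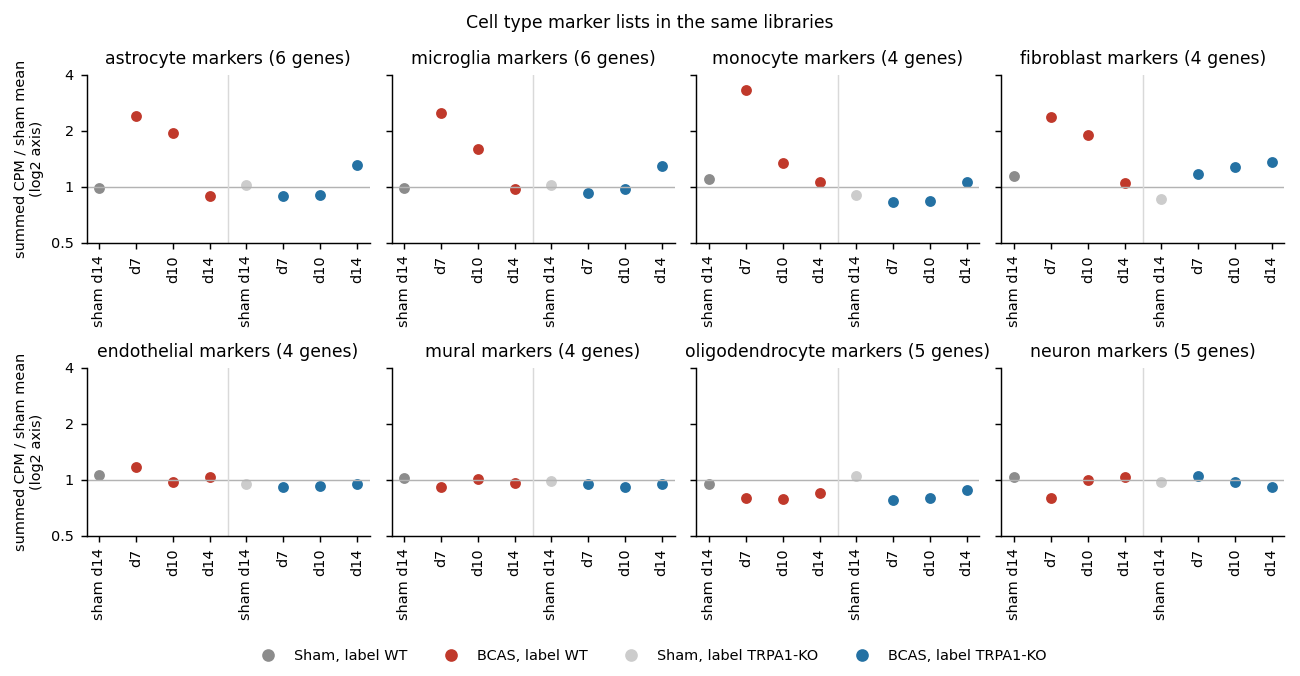
Summed CPM of 8 marker lists in each library divided by the mean of both sham libraries, on a log2 axis, with sham in grey, BCAS WT in red, and BCAS TRPA1-KO in blue. Astrocyte, microglia, monocyte, fibroblast, and endothelial lists are highest on day 7 of BCAS WT (2521, 744.9, 192.5, 31.8, and 193.4 CPM), the library in which the S100A genes are highest. Mural markers stay near the sham mean.

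The genes whose course was most like that of the 7 members were sought by Pearson's r with the mean of their standardized log2 values over the 8 libraries, among 15145 other genes. The highest were *Necap2* (r = 0.985), *Spi1* (0.983), *Ets1* (0.982), *Cdc42ep4* (0.982), and *Tmem104* (0.981). *Spi1* encodes PU.1, a transcription factor of the myeloid lineage, and had 10.5, 5.80, and 2.19 CPM in BCAS WT and 2.66 to 3.85 CPM in the other 5 libraries. Without day 7 of BCAS WT the 5 coefficients were 0.95, 0.94, 0.95, 0.96, and 0.93. The 8 points share library depth and scaling, and these values are a description.

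Among the members, *S100a4* and *S100a6* had the highest Pearson's r (0.96 over 8 libraries, 0.92 without day 7 of BCAS WT), with a Spearman's rho of 0.90. By rho, *S100a1* and *S100a8* were higher (0.95), the latter from at most 5 reads. The head-to-head pair *S100a1* and *S100a13* had r = 0.78, which was 0.52 without that library. *Ager* had r from 0.29 to 0.76 with the S100A genes. Without day 7 of BCAS WT its r was 0.80 with *S100a11* and 0.79 with *S100a13*, and between -0.08 and 0.44 with the others.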

How the data were processed

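The 8 libraries were made from polyA RNA of dissected corpus callosum. Per the paper's methods, the authors made libraries with the NEBNext Ultra kit, aligned NovaSeq reads by HISAT (version 2.1.0; GRCm38), obtained gene counts from subread (version 2.0.1), and scaled them by edgeR (version 3.34.1). The annotation and strand setting were not given in the sources used here. The deposited values are a signal computed by the authors, CPM over library sizes adjusted by normalization factors, not in logs. Dividing by the value of 1 read gave whole numbers for 100% of entries (tolerance 0.01), which recovered the reads, 7896071 to 12952093 per library. Intervals (95%, Clopper-Pearson) and the floor of 3 reads cover counting error only.

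Values were tested as log2(CPM + 1), which understates changes of low genes, with limma version 3.58.1 (trend, two-sided) in R version 4.3.3. The test ran over the 18123 genes that averaged 0.1 CPM or more, with Benjamini-Hochberg adjustment over all of them. A single fit of 3 groups (sham of either label pooled) over the 8 libraries gave the differences from sham, and the BCAS groups were compared within their own 6. P-values measure the spread between days and mice together. Exact permutation tests were run per gene. The alternatives were edgeR version 4.0.16 (quasi-likelihood) and DESeq2 version 1.42.0 on recovered reads, a pseudocount of 0.1, no filter or a mean of at least 1 CPM, equalized library medians, a block on day, other sample sets, and leaving out each library. Counts were simulated for 18123 genes, based on the comparison between BCAS groups, with 1 fixed spread between libraries for every gene. On them, each tool recovered 100% of well-expressed genes changed 2- or 4-fold, and limma called 6.27% of unchanged genes at an unadjusted p under 0.05. That spread was set in advance and not estimated from the members. Those with a mean of at least 1 CPM had a median log2 SD of 0.38 in BCAS WT. The recovery thus does not speak for the members or for genes near the read floor. All members were named, with up to 3 genes of smallest p from each partner list and the 5 genes of most similar course. Members and lists were chosen with earlier results of these data known. Positions and exon lengths are from GENCODE M21 and promoter windows from RefSeq.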

Additional observations from a re-analysis of the deposited data

Results flagged for a closer look

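The BCAS-minus-sham change of *Ager* had an unadjusted limma interaction p under 0.05 between labels and did not pass after adjustment (1.11 ± 0.42 on the log2(CPM + 1) scale, WT minus TRPA1-KO, adjusted p = 1). *Ager* was at 0.313 CPM in WT sham and 0.439 to 1.01 CPM in BCAS WT, and at 1.25 CPM in TRPA1-KO sham and 0.208 to 0.668 CPM in BCAS TRPA1-KO. All 3 BCAS WT libraries were above their sham library and all 3 BCAS TRPA1-KO libraries below theirs. The sham libraries, 1 per label, held 4 and 13 reads of the gene and add nothing to the estimate of spread, and 271 of 18123 genes had an unadjusted p under 0.05 in the same test, 0 of them after adjustment. No library was an outlier within its label for the 9 tested members (18 groups of 4 libraries examined by Dixon's test).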

How the results depend on the processing

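Of 301 values of 21 results under the alternatives, 262 kept their direction and their side of the threshold. Some alternatives, such as a change of filter, return the same log2 difference and could not change its direction. Not every member was followed in each comparison. BCAS TRPA1-KO against sham had only *S100a11* and *Ager*, and all WT against all TRPA1-KO labels only *S100a1*. The number of members with an unadjusted p under 0.05 between BCAS groups was 1 (4.20% of all genes had one). It became 0 without a filter (4.16% of genes) and with a mean of at least 1 CPM (4.15%), 2 with edgeR (5.23%), and 3 with DESeq2 (3.29%). When 1 library was left out it ran from 0 to 5, where 1.79% to 10.2% of all genes had such a p. BCAS WT against sham gave 0 (5.45% of all genes), but 1 with a pseudocount of 0.1 (5.58%) and 1 with equalized medians (5.38%). It gave 3 with edgeR (6.78%) and 2 with DESeq2 (4.54%). With 1 BCAS library left out it gave 0 to 5, the 5 without day 14 of BCAS WT, where 4.52% to 11.1% of all genes had such a p. BCAS TRPA1-KO against sham gave 0 under every alternative that kept both sham libraries, where 1.40% to 4.06% of all genes had such a p. All WT against all TRPA1-KO labels gave 0 (3.94% of all genes), but 1 with DESeq2 (3.45%). With 1 library left out it gave 0 to 2, where 2.70% to 5.87% of all genes had such a p.

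Without day 7 of BCAS WT, the log2 difference turned negative for 2 of 9 members between BCAS groups, 3 of 9 against sham, and 5 of 9 between all WT and all TRPA1-KO labels. *Ager* also turned in 3 other fits against sham. Over the fits without 1 library, the difference between BCAS groups ran from -0.013 to 0.25 for *S100a8* and from -0.15 to 0.23 for *S100a16*. For BCAS WT against sham it ran from -0.29 to 0.96 for *S100a11*, from -0.15 to 0.22 for *S100a16*, and from -0.33 (without WT sham) to 0.45 for *Ager*, with -0.015 without day 7 and -0.026 without day 10. *Ager* in BCAS TRPA1-KO against sham ran from -0.66 to 0.12, the latter without TRPA1-KO sham. The cause was not tested.

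With the day as a replicate block, 1 member had an unadjusted limma p under 0.05, *S100a11* in place of *S100a1*, as did 3.49% of all genes. Libraries of the same day had correlations of deviations of -0.10, 0.01, and -0.26 over 10744 genes, so these genes as a whole did not vary together by day. With 1 value a day this does not settle whether single members did. Counts under the read floor limit *S100a8*, *S100a9*, and *Ager* most.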
